A study of Mus musculus with 16 samples.

Results

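The collagen chain genes are the genes that encode the chains of collagen proteins. They were taken as every gene of the deposited table whose symbol reads Col, a number, a and a number. This pattern matched 44 of 24421 genes, and 43 of them had at least 10 counts summed over the 16 libraries. The excluded gene, Col26a1, had 6 counts. The 43 genes were grouped as 11 fibrillar chains, 8 basement membrane chains, 9 network and beaded filament chains, 2 epidermal chains, 9 fibril-associated chains, and 4 other transmembrane and minor chains. The samples are skin of female mice of the hairless SKH-1 strain, which is used to study skin tumors caused by ultraviolet B (UVB) light. The dose was 60 mJ/cm2 of UVB, given 2 times a week, and controls had no agent. RNA sequencing was done on 8 groups of 2 libraries, numbered replicate 0 and 1. They were UVB and control epidermis after 2, 15 and 25 weeks of treatment, tumors of UVB-exposed mice at week 25, and whole skin of control mice at week 25. All groups share the strain and the sex, and the labels give no age and no genetic change. Whether the libraries in a group are from different mice is not stated, and p-values then reflect only how much these samples vary, possibly for technical reasons.

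Collagen chains assemble in the endoplasmic reticulum into a rope-like helix and are secreted. Outside the cell they form fibrils in the dermis, sheets in the basement membrane, beaded filaments, or anchors that tie the epidermis to the dermis. Dermal fibroblasts make most fibrillar collagen of skin. Basal keratinocytes make the anchoring chains Col7a1 and Col17a1 and part of the basement membrane chains, which include Col4a5 and Col4a6. In bulk samples, fewer cells of a type and less RNA per cell cannot be told apart.

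Several basement membrane chains lie in pairs that start from a shared stretch of genome and run in opposite directions. In the deposited mm10 coordinates, Col4a1 starts at position 11312826 of chromosome 8, on the minus strand, and Col4a2 starts 3 bases away on the plus strand. Col4a4 and Col4a3 start 72 bases apart on chromosome 1. Col4a6 and Col4a5 start 1343 bases apart on chromosome X. RefSeq promoter windows of build GRCm38.p6, from 250 bases before to 50 bases after each gene start, were found for 35 of the 43 genes, in 38 windows. The windows below are shown for Col4a5, Col4a6 and Col27a1, which were called lower in UVB epidermis over the weeks, and for Col4a1, whose window shares 78 bases with that of Col4a2. They are chrX:141475169-141475468 on the plus strand for Col4a5, chrX:141474027-141474326 on the minus strand for Col4a6, chr4:63215162-63215461 on the plus strand for Col27a1, and chr8:11312777-11313076 on the minus strand for Col4a1. Each is written 5′ to 3′ on the strand of its gene, and capitals mark matches to the GC box letters GGGCGG or the CCAAT box letters CCAAT on either strand (CCGCCC and ATTGG on the other strand).
Col4a5: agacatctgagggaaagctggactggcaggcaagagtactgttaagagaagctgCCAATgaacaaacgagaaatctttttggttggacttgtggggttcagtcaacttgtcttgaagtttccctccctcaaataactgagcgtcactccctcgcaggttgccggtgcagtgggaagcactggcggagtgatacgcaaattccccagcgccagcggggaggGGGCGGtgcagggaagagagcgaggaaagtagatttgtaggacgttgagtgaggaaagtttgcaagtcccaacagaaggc
Col4a6: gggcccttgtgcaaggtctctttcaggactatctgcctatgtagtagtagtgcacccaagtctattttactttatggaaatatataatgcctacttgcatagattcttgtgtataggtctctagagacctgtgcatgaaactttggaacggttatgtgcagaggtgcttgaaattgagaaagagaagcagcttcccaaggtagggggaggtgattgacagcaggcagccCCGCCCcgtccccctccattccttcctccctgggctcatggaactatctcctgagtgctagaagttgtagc
Col27a1: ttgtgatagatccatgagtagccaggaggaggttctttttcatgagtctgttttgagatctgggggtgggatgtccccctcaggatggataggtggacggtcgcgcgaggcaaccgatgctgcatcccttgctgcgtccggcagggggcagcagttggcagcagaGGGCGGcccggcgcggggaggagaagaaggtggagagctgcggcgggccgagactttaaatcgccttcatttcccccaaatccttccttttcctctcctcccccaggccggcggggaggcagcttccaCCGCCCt
Col4a1: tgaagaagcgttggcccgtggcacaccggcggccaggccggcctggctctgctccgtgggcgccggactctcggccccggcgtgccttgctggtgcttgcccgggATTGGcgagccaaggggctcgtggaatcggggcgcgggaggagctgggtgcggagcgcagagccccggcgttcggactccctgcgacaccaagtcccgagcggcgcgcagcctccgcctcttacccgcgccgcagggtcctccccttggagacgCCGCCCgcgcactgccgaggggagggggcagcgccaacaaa
A GC box was found in 23 of the 38 collagen windows (60.5%), against 35.7% of all 32851 promoter windows. The CCAAT letters were found in 34.2% of the collagen windows and 37.4% of all windows. The TATA box letters TATAAA were found in 13.2% and 13.6%, and in none of the windows shown. These matches describe letters only.

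Library totals ran from 2905165 counts (week 2 control replicate 1) to 7959503 (whole skin replicate 0), and the other 14 libraries held 4854612 to 7175363. Collagen chains took 0.387% of the counts at most in tumor and 0.276% and 0.268% in whole skin, against 0.0304% to 0.145% in epidermis. Skeletal muscle markers of deeper skin summed to 2838 and 2658 CPM (read counts relative to library size, scaled by the TMM method) in tumors and 1957 and 3856 CPM in whole skin, against 14.1 to 91.9 CPM in epidermis. The 6 markers of basal keratinocytes were detected in every library and summed to at least 916 CPM.

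Per kilobase of exon, the 2 epidermal chains had the highest means in 5 of the 6 epidermis groups, and in week 2 UVB epidermis Col18a1 (8.15 CPM per kilobase) stood between Col17a1 and Col7a1 (7.85). The dermal fibrillar chains stood beside them in tumor and whole skin. In week 25 UVB epidermis, Col17a1, the transmembrane collagen of the hemidesmosome, had 81.5 CPM per kilobase, Col7a1, the chain of anchoring fibrils, 30.6, and Col18a1, a basement membrane chain and the source of endostatin, 21.0. In week 25 control epidermis Col17a1 had 70.4, Col7a1 16.4, Col18a1 8.27, Col16a1 (a fibril-associated chain) 7.99 and Col4a5 5.44 CPM per kilobase. In tumors the order was Col17a1 with 93.3, Col3a1 with 71.8, Col1a2 with 62.3, Col1a1 with 39.8 and Col7a1 with 39.1 CPM per kilobase. In whole skin it was Col17a1 with 83.2, Col3a1 with 45.4, Col1a2 with 34.7 and Col7a1 with 25.5 CPM per kilobase. These first places were the same when libraries were scaled by their totals alone. At the low end, Col9a1, Col19a1 and Col25a1 had 29, 23 and 33 counts in all 16 libraries.

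**Figure D1:**
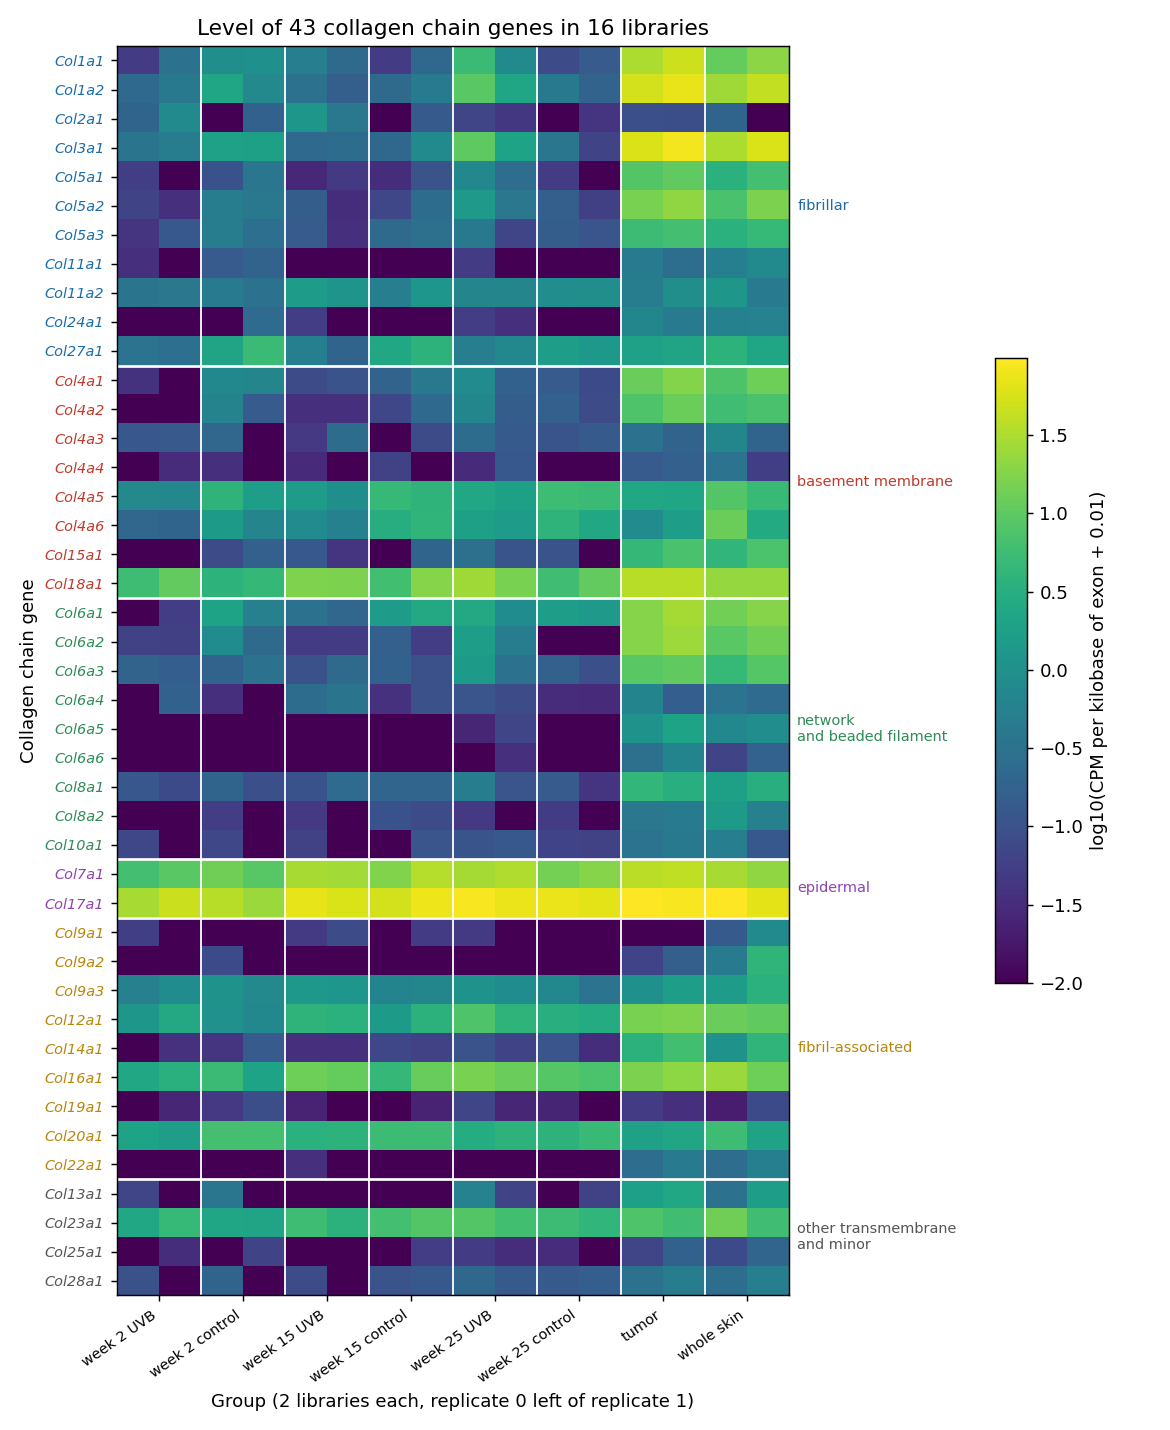
Level of each of the 43 collagen chain genes (lines, coloured by class) in each of the 16 libraries (columns), as log10 of CPM per kilobase of exon plus 0.01. Col17a1 and Col7a1 are high in every column, and most fibrillar, Col4a1, Col4a2 and Col6 chains are highest in tumor and whole skin.

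UVB over control was first taken as the mean over the 3 weeks, with 6 UVB and 6 control epidermis libraries. In UVB epidermis 4 chains were lower and 4 higher of the 26 tested, at an adjusted p under 0.05 (edgeR quasi-likelihood test, Benjamini-Hochberg adjustment over 13478 genes). Of all genes 29.5% were called, 15.1% lower and 14.4% higher. The lower chains were Col4a5 and Col4a6, which form a type IV collagen network of the epidermal basement membrane, Col27a1, a fibrillar chain known from cartilage, and Col20a1, a fibril-associated chain. The median log2 of the 26 was 0.23, against -0.02 for all genes tested. Members that are near 0 in all but a high group pass the filter through that group alone, so these counts and medians describe the tested genes and not the whole family.

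Col4a5 had 4.89 and 4.51 CPM at week 2, 10.01 and 6.36 at week 15 and 15.6 and 12.1 at week 25 in UVB epidermis, against 25.5 and 10.6, 30.6 and 25.6, and 36.3 and 34.3 CPM in control epidermis at those weeks. Every UVB library was below both control libraries of its own week. Its mean was 8.91 ± 4.43 CPM in UVB and 27.1 ± 9.23 CPM in control epidermis (SD, n = 6 each), a log2 of -1.70 ± 0.21 (SE, edgeR adjusted p = 0.000357).

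Col4a6 had 1.32 and 1.22 CPM at week 2, 5.47 and 3.72 at week 15 and 12.1 and 10.4 at week 25 in UVB epidermis, against 9.89 and 4.23, 20.5 and 27.4, and 26.1 and 16.2 CPM in controls. The pattern is that of its neighbour Col4a5: the UVB libraries of each week lie below the controls of that week, and both arms are higher at week 25 than at week 2. The means were 5.69 ± 4.59 CPM in UVB and 17.4 ± 9.13 CPM in control epidermis, a log2 of -1.86 ± 0.31 (edgeR adjusted p = 0.00131). Per kilobase, Col4a5 stood at 1.20 to 3.80 times Col4a6 in the 6 UVB libraries and at 0.958 to 2.64 times in the 6 control libraries.

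Col27a1 had 1.40 to 5.54 CPM (median 3.13) in the 6 UVB libraries and 10.01 to 39.8 CPM (median 17.2) in the 6 control libraries. Its UVB libraries of all weeks lay below every control library, and the share of all genes with such a separation was not counted. The means were 3.20 ± 1.51 CPM in UVB and 21.1 ± 11.3 CPM in control epidermis, a log2 of -2.68 ± 0.40 (edgeR adjusted p = 0.000937). Col20a1 had 7.29 to 16.1 CPM (median 13.8) in UVB and 15.9 to 26.8 CPM (median 23.1) in control libraries, and the arms overlap by 1 UVB library at week 25. Its log2 was -0.89 ± 0.22 (edgeR adjusted p = 0.00992). These 4 calls held in each of 19 alternative analyses, with an adjusted p of 0.0293 at most. Hair follicle markers were also lower: the 8 of the list summed to 97.9 to 412 CPM (median 266) in UVB and 659 to 1828 CPM (median 1178) in control epidermis, and 6 of 8 were called lower, beside 15.1% of all genes. Krt35 was at 0 counts in week 2 UVB replicate 1 and in week 25 UVB replicate 1. Their part in the lower collagen levels was not tested.

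**Figure D2:**
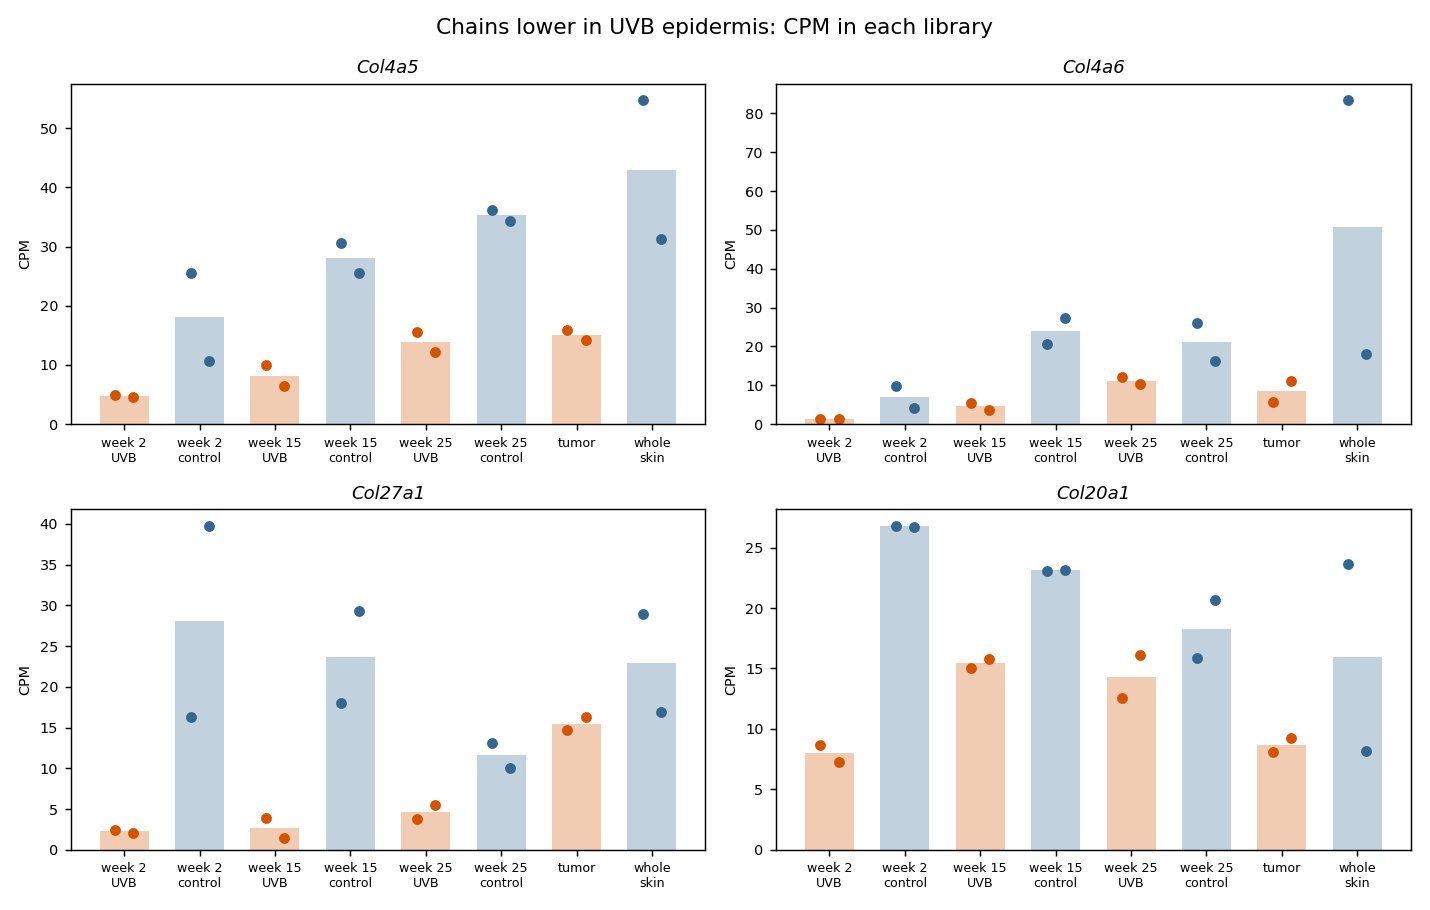
Levels in CPM of Col4a5, Col4a6, Col27a1 and Col20a1 in each of the 8 groups. Dots are the 2 libraries of a group and bars their mean. In all 4 panels the UVB bars are lower than the control bars of the same week.

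The other 4 called chains were higher in UVB epidermis over the weeks, each with arms that overlap. Col12a1, a fibril-associated chain, had 15.1 to 91.0 CPM (median 43.7) in UVB and 8.47 to 42.3 CPM (median 25.5) in control libraries, a log2 of 0.83 ± 0.25 (edgeR adjusted p = 0.0271). Col18a1 had 32.9 to 155 CPM (median 90.5) in UVB and 21.9 to 105 CPM (median 34.3) in control libraries, a log2 of 0.89 ± 0.29 (edgeR adjusted p = 0.0359). For both genes the UVB libraries of week 2 were above the controls, and at week 15 control replicate 1 reached the UVB level. Col2a1, the main chain of cartilage, rested on 86 counts in UVB and 7 in control epidermis, of which 42 were in week 15 UVB replicate 0, with a log2 of 3.06 ± 0.92 (edgeR adjusted p = 0.0137). Col6a4, an alternative chain of the beaded filament, had 43 counts in UVB and 8 in control epidermis and a log2 of 2.11 ± 0.72 (edgeR adjusted p = 0.0266). These calls depended on single libraries. In edgeR, Col2a1 was not called without week 15 UVB replicate 0 (adjusted p = 0.0544). Col6a4, Col12a1 and Col18a1 were each not called without week 2 UVB replicate 1, week 15 control replicate 0, week 25 control replicate 0 or week 25 UVB replicate 0 (edgeR adjusted p of 0.0882 at most). Col6a4 was also not called without week 15 UVB replicate 1 (edgeR adjusted p = 0.0716), Col12a1 and Col18a1 without week 25 control replicate 1 (0.0564 and 0.054), and Col18a1 without week 2 control replicate 0 (0.061). The count of 8 called chains fell to 5 without week 2 UVB replicate 1 or week 15 control replicate 0.

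The epidermal chains gave no call. Col17a1 had 166 and 261 CPM at week 2, 393 and 319 at week 15 and 495 and 408 at week 25 in UVB epidermis, against 201 and 135, 289 and 424, and 410 and 370 CPM in controls. Its log2 over the weeks was 0.16 ± 0.15 (edgeR adjusted p = 0.444). Col7a1 had 58.3 and 86.1, 267 and 251, and 262 and 300.4 CPM in UVB, against 124 and 83.8, 158 and 329, and 132 and 170 CPM in controls, with a log2 of 0.14 ± 0.24 (edgeR adjusted p = 0.687). At week 25 both UVB libraries of Col7a1 were above both controls, and at weeks 2 and 15 the groups overlapped. Removal of duplicates limits the counts that a gene can reach, and where this limit lies was not measured. The highest counts per base of any gene with at least 500 exon bases were 1.83 to 2.11 in these libraries. Col17a1 reached 0.949 counts per base in whole skin replicate 0, so its differences can be understated. Of the other 2 leading chains, Col16a1 had 13.0 to 81.7 CPM in UVB and 10.6 to 60.4 CPM in control libraries, and Col23a1, a transmembrane chain, 13.7 to 48.1 CPM in UVB and 12.3 to 47.0 CPM in control libraries, with no call at any week.

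At week 2, 8 of 26 tested chains were lower in UVB epidermis and none higher (17.8% of all genes were called, 9.74% lower and 8.09% higher). The lower chains were Col20a1, Col27a1, Col4a5, Col4a6, Col4a1, Col4a2, Col6a1 and Col6a2. Both UVB libraries lay below both controls for 15 of the 26, against 28.9% of all genes, and above them for 4, against 31.4%. The median log2 was -1.89 for the 26, -2.38 for the 9 fibrillar and -2.28 for the 6 basement membrane chains, and -0.03 for all genes.

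Col20a1 had 8.66 and 7.29 CPM in UVB and 26.8 and 26.7 CPM in control epidermis at week 2, a log2 of -1.77 ± 0.25 (edgeR adjusted p = 0.00417). Col27a1 had 2.45 and 2.08 CPM in UVB and 16.4 and 39.8 CPM in control epidermis, a log2 of -3.63 ± 0.57 (edgeR adjusted p = 0.00482). The log2 was -2.56 ± 0.52 for Col4a6 (edgeR adjusted p = 0.00911) and -2.01 ± 0.39 for Col4a5 (edgeR adjusted p = 0.00915). Col4a1 and Col4a2, the pair found in all basement membranes, had at most 1 count in the UVB libraries. Col4a1 had 1 count in the 2 UVB libraries and 35 in the controls, 50.9-fold lower (95% counting interval 8.55 to 2.07e+03, edgeR adjusted p = 0.0118). Col4a2 had 0 counts in UVB and 22 in the controls, at least 10.7-fold lower against a floor of 3 counts over the group (edgeR adjusted p = 0.0279). Among the beaded filament chains, which link fibrils to cells, Col6a1 had 1 count in UVB and 48 in controls and was 69.8-fold lower (11.9 to 2.81e+03, edgeR adjusted p = 0.00914). Col6a2 had 2 counts in UVB and 19 in controls and was 13.8-fold lower in UVB (3.33 to 122, edgeR adjusted p = 0.0494). The Col6a2 call was lost under upper quartile scaling (edgeR adjusted p = 0.0521), library totals (0.06003), DESeq2 (0.0781) and without any 1 of the 4 libraries (edgeR adjusted p of 0.0550 to 0.367).

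The dermal fibrillar chains were also low in UVB epidermis at week 2, with no call. Col1a1 had 0.188 and 1.39 CPM in UVB and 4.57 and 4.66 CPM in control epidermis, Col1a2 1.13 and 2.08 against 11.2 and 3.81, and Col3a1 1.88 and 2.60 against 10.5 and 10.2. The groups do not overlap for these 3 chains. Fibroblast markers ran with them in part: Dcn and Fap were lower and Fbln1 was higher of 8 tested, and the 12 markers summed to 115 and 90.1 CPM in UVB and 121 and 174 CPM in control epidermis, with Twist2 at 0 in 3 of these 4 libraries. Among all genes, 9.74% were called lower and 8.09% higher at week 2. Adipocyte markers summed to 12.0 and 2.26 CPM in UVB and 139 and 113 CPM in control epidermis, with Plin1 and Lep at 0 in both UVB libraries and in control replicate 1, and hair follicle markers to 317 and 97.9 against 1639 and 1828 CPM. Basal keratinocyte markers ran the other way, with sums of 1509 and 1772 CPM in UVB and 1178 and 916 CPM in control epidermis, 3 of 6 called higher (Itga6, Krt5 and Trp63) and none at 0. Their part was not tested. No member was called by edgeR without week 2 UVB replicate 1 (adjusted p of 0.0534 for Col20a1 and 0.0609 for Col27a1), 5 were called without UVB replicate 0, 5 without control replicate 0 and 7 without control replicate 1, the shallowest library.

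At week 15 the lower chains were Col4a5, Col4a6, Col27a1 and Col6a1, and no dermal fibrillar chain was called. Of the 26, 4 were lower and none higher in UVB epidermis, where 3.49% of all genes were called, 1.64% lower and 1.85% higher. The median log2 was -0.59, against -0.01 for all genes. Both UVB libraries lay below both controls for 10 chains (25.4% of all genes) and above for 4 (26.9%). Col4a6 had a log2 of -2.39 ± 0.39 (edgeR adjusted p = 0.0167), Col27a1 of -3.16 ± 0.54 (edgeR adjusted p = 0.0185) and Col4a5 of -1.79 ± 0.36 (edgeR adjusted p = 0.0310). Col6a1 had 1.25 and 0.775 CPM in UVB and 6.12 and 9.98 CPM in control epidermis, a log2 of -2.98 ± 0.75 (edgeR adjusted p = 0.0490). Col6a1 was not called under upper quartile scaling (edgeR adjusted p = 0.0575) or library totals (0.0692). It was also not called with any single library of these groups left out, where its log2 ran from -3.35 to -2.59. Col4a5 was not called under library totals (edgeR adjusted p = 0.0574), nor Col4a6 in a fit of all 16 libraries (0.0703). Col3a1 had 1.25 and 1.40 CPM in UVB and 1.18 and 4.35 CPM in control epidermis, and Col1a1 2.35 and 1.09 against 0.197 and 0.966 CPM. No chain was called by edgeR without control replicate 0 or without UVB replicate 1 (lowest adjusted p 0.0628, for Col27a1), 1 without UVB replicate 0 and 3 without control replicate 1.

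At week 25 dermal fibrillar chains were higher in UVB epidermis. Of the 26 tested chains 7 were higher and 1 lower in UVB epidermis, beside 21.5% of all genes called, 10.6% higher and 10.9% lower. The higher chains were the fibrillar Col1a1, Col1a2, Col3a1, Col5a1 and Col5a2, where type V chains help set fibril width, and the beaded filament chains Col6a2 and Col6a3. Both UVB libraries lay above both controls for 16 chains, against 37.1% of all genes, and below for 4, against 33.4%. The median log2 was 0.94 for the 26, 3.15 for the 9 fibrillar chains and 0.01 for all genes. Col5a1 and Col6a2 passed the filter only with the week 25 UVB libraries, so for them a higher level there was partly set in advance. The count and the medians describe the tested chains and not the whole family.

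Col1a2 had 47.2 and 11.8 CPM in UVB and 2.02 and 0.924 CPM in control epidermis, a log2 of 4.30 ± 0.77 (edgeR adjusted p = 0.00585). Col3a1 had 55.0 and 11.3 CPM in UVB and 2.02 and 0.308 CPM in controls, a log2 of 4.81 ± 0.91 (edgeR adjusted p = 0.00629). Col1a1 had 24.7 and 3.75 CPM in UVB and 0.337 and 0.616 CPM in controls, a log2 of 4.81 ± 1.16 (edgeR adjusted p = 0.0106). In each of these genes UVB replicate 0 was the higher of the UVB pair and both UVB libraries were above both controls. Col6a2 had 50 counts in UVB and 0 in controls, at least 17.0-fold higher (edgeR adjusted p = 0.00794). Col5a1 had 52 counts in UVB and 2 in controls and was 26.6-fold higher in UVB (7.0 to 225, edgeR adjusted p = 0.0205). Col5a2 had 9.46 and 2.50 CPM in UVB against 1.01 and 0.308 CPM, and Col6a3 16.03 and 3.21 against 1.69 and 0.924 CPM, with log2 values of 3.15 ± 0.93 and 2.86 ± 0.78 (edgeR adjusted p = 0.0285 and 0.0259). The lower chain was again Col4a5, with 15.6 and 12.1 CPM in UVB and 36.3 and 34.3 CPM in controls, a log2 of -1.37 ± 0.35 (edgeR adjusted p = 0.0215). Col4a5 was not called under library totals (edgeR adjusted p = 0.0603). It was also not called with any single library of these groups left out, where its log2 ran from -1.58 to -1.21.

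Fibroblast markers were higher with these chains at week 25, with 5 of 8 tested called higher (Dcn, Fap, Fbln1, Lum and Pdgfrb). Among all genes, 10.6% were called higher at this week. Lum, a small proteoglycan of the dermis, had 8.40 and 2.68 CPM in UVB and 0.169 and 0 CPM in control epidermis, and Dcn, which binds collagen fibrils, 5.50 and 3.39 against 1.01 and 0.924 CPM. The 12 markers summed to 247 and 151 CPM in UVB and 120 and 161 CPM in controls, so that their sums overlap. Mfap5 was at 0 in both UVB libraries, and Twist2 in both controls. Macrophage markers summed to 144 and 112 CPM in UVB and 35.4 and 32.5 CPM in controls, with 5 of 7 called higher. Their part in the collagen levels was not tested. Without UVB replicate 0, or without control replicate 1, edgeR called none of the 26 (lowest adjusted p 0.0505 for Col1a2 and 0.0526 for Col3a1), 3 without control replicate 0 and 8 without UVB replicate 1. The sizes also rested on UVB replicate 0, without which the log2 was 2.95 for Col1a2, 3.23 for Col3a1, 2.87 for Col1a1, 1.87 for Col5a2 and 1.26 for Col6a3.

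**Figure D3:**
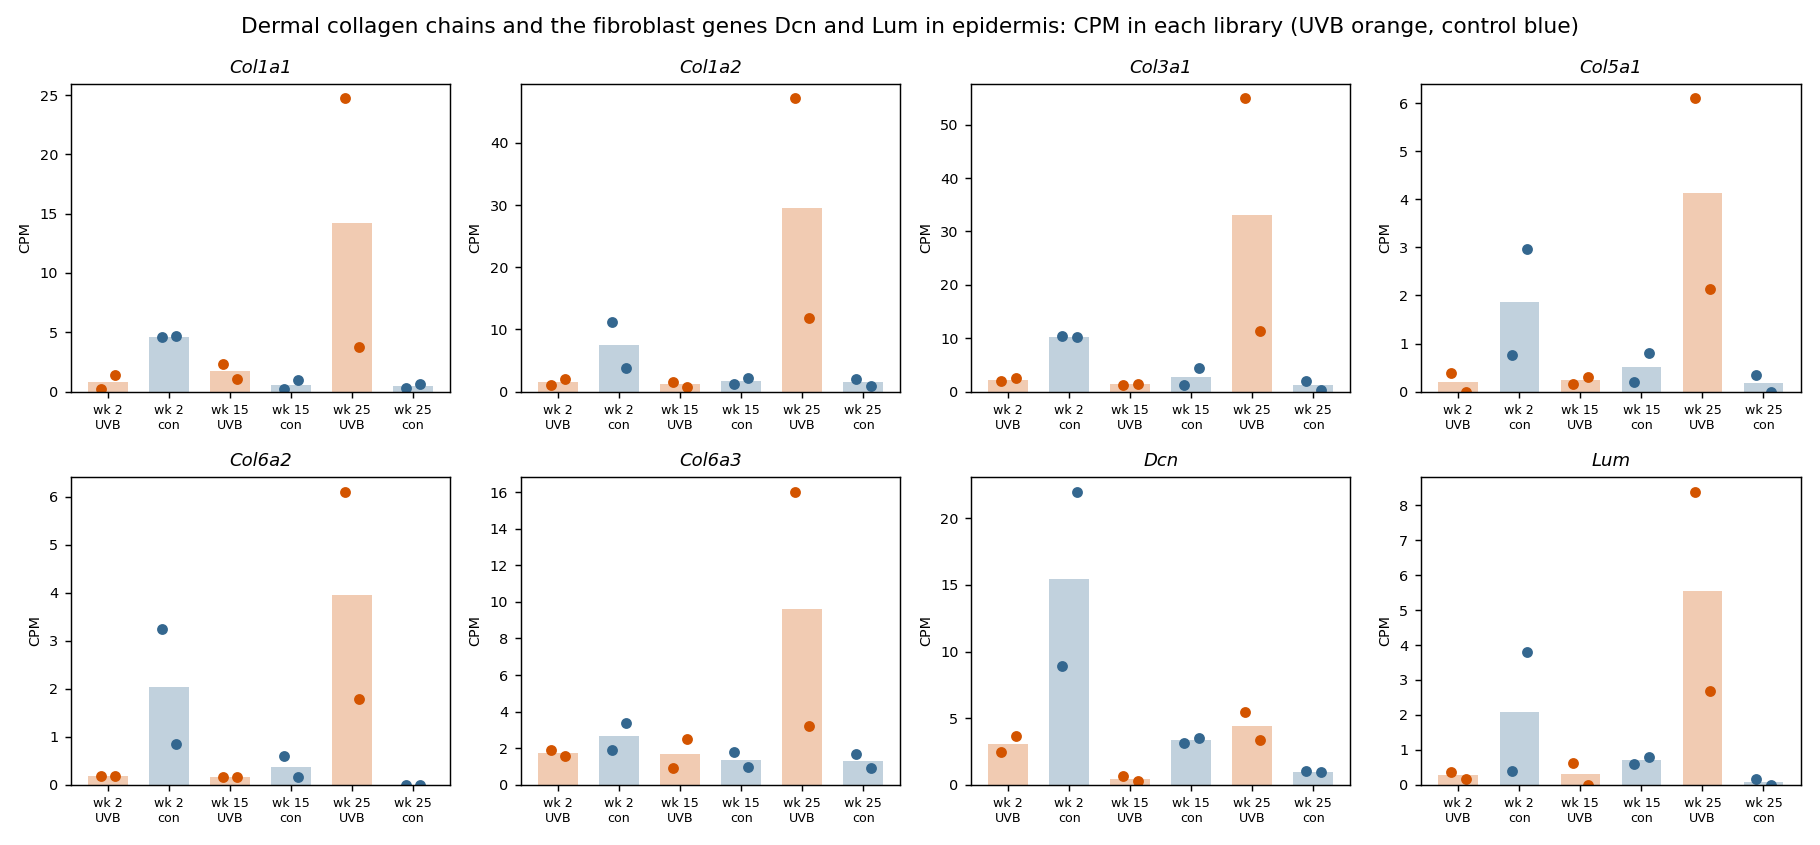
Levels in CPM of 6 dermal collagen chains and of the fibroblast genes Dcn and Lum in the 6 epidermis groups, with UVB beside control at each week. Dots are libraries and bars are means. For Col1a1, Col1a2 and Col3a1 both UVB dots lie below both control dots at week 2 and above them at week 25.

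The UVB effect of week 25 differed from that of week 2 for 10 of the 26 chains, all toward higher, where 3.33% of all genes were called in that direction (7.92% in either). They were Col1a1, Col1a2, Col3a1, Col5a1 and Col5a2, the basement membrane chains Col4a1 and Col4a2, the beaded filament chains Col6a1 and Col6a2, and Col20a1. The difference between the 2 weekly log2 values was 6.60 ± 1.12 for Col1a2 (edgeR interaction term, adjusted p = 0.0125) and 7.03 ± 1.24 for Col3a1 (adjusted p = 0.0138, edgeR). It was 7.32 ± 1.60 for Col1a1, where the week 2 UVB libraries held 9 counts (edgeR adjusted p = 0.0186), and 1.39 ± 0.34 for Col20a1 (edgeR adjusted p = 0.0362). For the other 6 chains a group held 3 or fewer counts, and the adjusted p ran from 0.0138 for Col6a2 to 0.0322 for Col4a2. Among these 6, Col5a1 and Col6a2 passed the filter only with the week 25 UVB libraries. The difference of week 15 from week 2 and of week 25 from week 15 gave no call among the 26 by edgeR, with 4 and 11 chains at an unadjusted p under 0.05 and 0 and 2 called by DESeq2 (Col1a2 and Col3a1). Of all genes edgeR called none in these differences, and 1190 and 1315 had an unadjusted p under 0.05. The number of calls was 0 without week 2 UVB replicate 1 or week 25 control replicate 1, 1 without week 25 UVB replicate 0, 3 without week 2 UVB replicate 0 and 6 without week 25 control replicate 0.

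**Figure D4:**
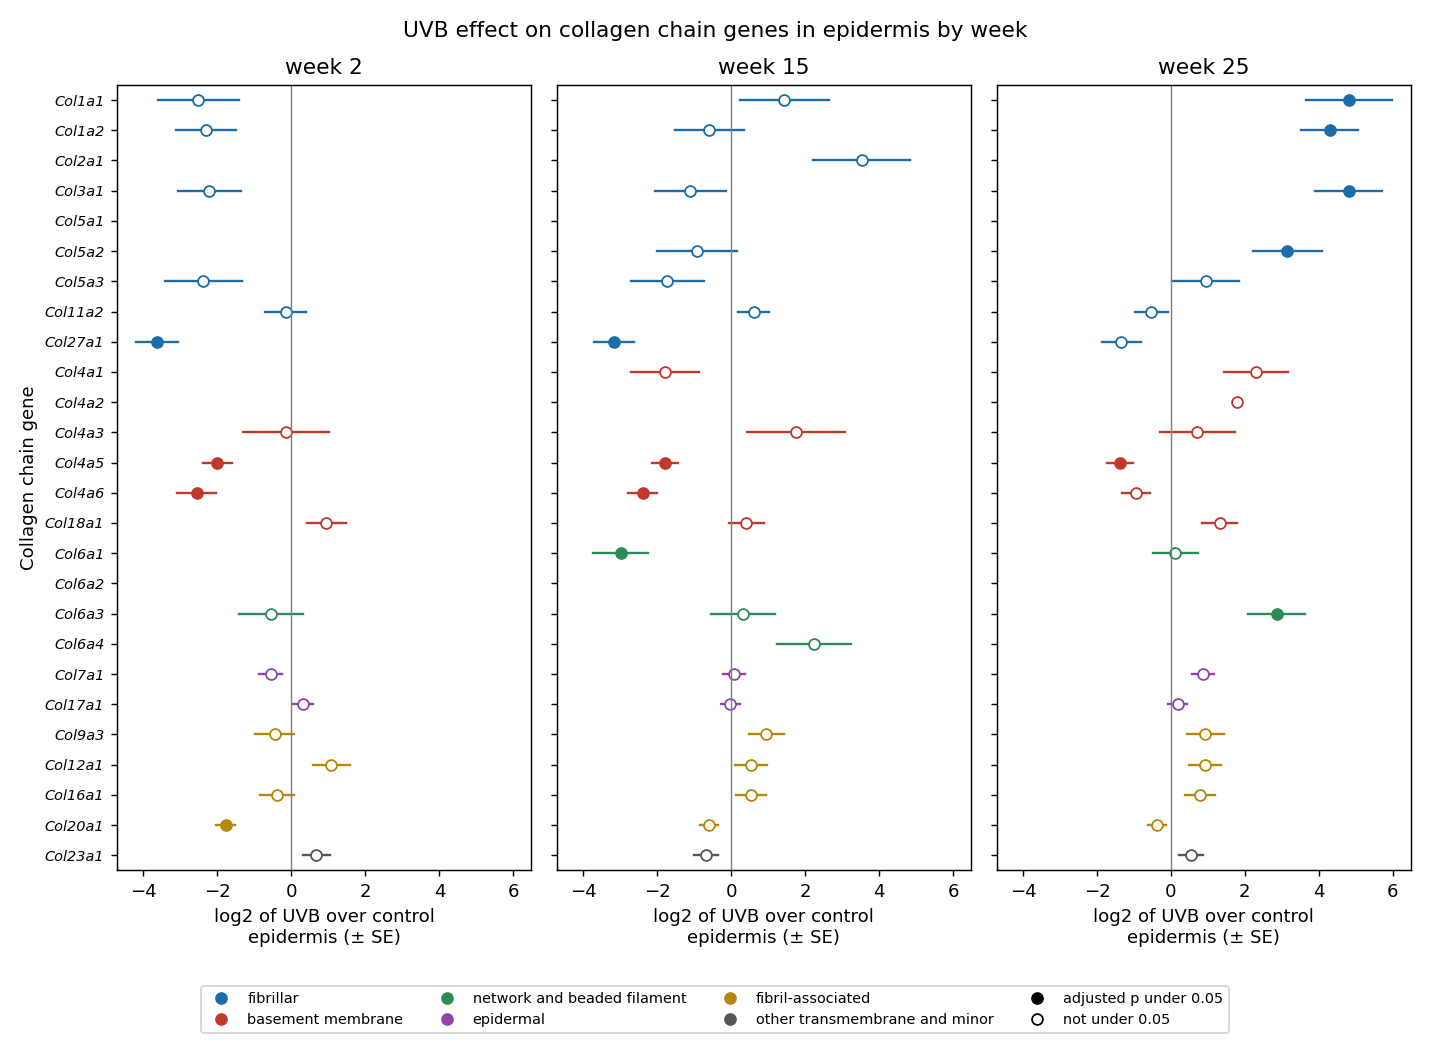
Log2 of UVB over control epidermis (± SE of the edgeR fit) for the tested chains at weeks 2, 15 and 25, coloured by class; filled points have an adjusted p under 0.05, a point without a bar has no SE, and genes with 3 or fewer counts in a group are not drawn. Fibrillar points lie mostly left of 0 at week 2 and right of it at week 25, while Col4a5, Col4a6 and Col27a1 stay on the left.

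The control libraries themselves differed between the weeks. In control epidermis 3 of 26 chains were higher and 3 lower at week 25 than at week 2, beside 13.7% of all genes called, 8.47% higher and 5.24% lower. Col17a1 had 410 and 370 CPM at week 25 and 201 and 135 CPM at week 2, a log2 of 1.21 ± 0.26 (edgeR adjusted p = 0.0212). Col4a6 and Col12a1 were higher by a log2 of 1.51 ± 0.40 and 1.76 ± 0.49 (edgeR adjusted p = 0.0340 and 0.0397). Col3a1 had 2.02 and 0.308 CPM at week 25 and 10.5 and 10.2 CPM at week 2, a log2 of -3.15 ± 0.94 (edgeR adjusted p = 0.0446). Col4a1 was lower by a log2 of -2.76 ± 0.87 (edgeR adjusted p = 0.0490), and Col6a2, with 0 counts at week 25 and 19 at week 2, at least 10.3-fold lower (edgeR adjusted p = 0.0262). These control libraries are shared with the UVB comparisons of weeks 2 and 25. Without either week 25 control library edgeR called no chain (adjusted p of 0.0793 and 0.0958 for Col17a1), 1 without week 2 control replicate 1 and 6 without week 2 control replicate 0.

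Tumors were compared with whole skin, since both hold epidermis and deeper tissue. No chain was called of 36 tested by edgeR, and none (0%) of 14661 genes. An unadjusted p under 0.05 was found for 8 chains and 813 genes, and DESeq2 called 1 chain, Col4a6, and 66 genes. In an edgeR fit that also took the replicate number into account, Col1a1, Col4a5 and Col4a6 were called. The median log2 of the chains was 0.44, against -0.06 for all genes. Both tumors lay above both whole skin libraries for 16 chains, against 22.5% of all genes, and below for 5, against 12.2%. The 16 were 5 of 10 fibrillar, 6 of 8 network, 2 of 7 basement membrane, 1 of 2 epidermal, 1 of 6 fibril-associated and 1 of 3 other chains.

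Col1a1 had 147 and 227 CPM in tumors and 52.3 and 94.7 CPM in whole skin, a log2 of 1.27 ± 0.35 (edgeR adjusted p = 0.891). Col6a2 had 68.6 and 94.5 CPM in tumors and 34.6 and 49.4 CPM in whole skin, a log2 of 0.88 ± 0.29 (edgeR adjusted p = 0.891). For both chains the tumors lay above whole skin with no overlap. Col1a2 had 270 and 371 CPM in tumors against 137 and 220 CPM, and Col3a1 336 and 463 against 176 and 330 CPM in whole skin. Col4a5 and Col4a6 ran the other way, with 15.8 and 14.2 CPM in tumors against 54.8 and 31.2 CPM in whole skin for Col4a5, and 5.62 and 11.2 CPM against 83.5 and 18.0 CPM for Col4a6. Their log2 values were -1.60 ± 0.37 and -2.70 ± 0.76 (edgeR adjusted p = 0.891 for both), and the groups do not overlap. Col17a1 had 533 and 500 CPM in tumors and 543 and 379 CPM in whole skin, and Col7a1 350 and 369 against 275 and 193 CPM, with log2 values of 0.08 ± 0.27 and 0.53 ± 0.26 (edgeR adjusted p = 0.997 and 0.911). The cartilage chains Col9a1 and Col9a2 were found mostly in whole skin replicate 1. Col9a1 had 0 counts in tumors and 23 in whole skin, at least 7.11-fold lower, and Col9a2 had 4 counts in tumors and 73 in whole skin.

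Marker levels of other cell types also differed between these 4 libraries. Fibroblast markers summed to 879 and 1130 CPM in tumors and 518 and 1048 CPM in whole skin, skeletal muscle markers to 2838 and 2658 against 1957 and 3856 CPM, and endothelial markers to 184 and 267 against 71.9 and 171 CPM. Macrophage markers summed to 463 and 630 CPM in tumors and 261 and 403 CPM in whole skin, with no overlap and 5 of 7 genes above whole skin in both tumors. Hair follicle markers summed to 225 and 214 CPM in tumors and 433 and 247 CPM in whole skin. No marker of these lists was at 0 in any of the 4 libraries, and their part in the collagen levels was not tested. The fit has 2 residual degrees of freedom. Without whole skin replicate 1 edgeR called 27 chains and without replicate 0 it called 13, where the lone whole skin library is assumed to vary as the tumors do, and without either tumor it called none.

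Most tested chains were higher in tumors than in the UVB epidermis of the same week. Of 37 tested chains 22 were higher in tumors and none lower, beside 29.5% of all genes called, 16.8% higher and 12.7% lower. They were 9 of 11 fibrillar, 7 of 8 network and beaded filament, 3 of 7 basement membrane and 3 of 6 fibril-associated chains. Of those called, Col11a1, Col14a1, Col15a1, Col22a1, Col24a1, Col6a5, Col6a6, Col8a1 and Col8a2 had too few counts to be tested in epidermis alone. They passed the filter through tumor or whole skin, so a higher level than in epidermis was largely set in advance. The count and the median describe the tested chains and not the whole family. The median log2 was 3.44 (3.43 with Col22a1, a chain of tissue junctions at 0 in UVB epidermis, set to its bound), against 0.03 for all genes. Col4a1 had 79.0 and 116 CPM in tumors and 5.50 and 1.07 CPM in UVB epidermis, a log2 of 4.85 ± 0.53 (edgeR adjusted p = 6.1e-05). Col6a2 had 68.6 and 94.5 CPM against 6.11 and 1.79 CPM, a log2 of 4.34 for which the fit gave no SE (edgeR adjusted p = 0.000123). Col14a1, which binds dermal fibrils, had 23.9 and 38.5 against 0.611 and 0.357 CPM, a log2 of 5.93 ± 0.86 (edgeR adjusted p = 0.000135). Col5a3 had 33.3 and 37.8 against 2.44 and 0.357 CPM, a log2 of 4.60 ± 0.61 (edgeR adjusted p = 0.000172). The groups do not overlap for any of these 4 chains.

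Col27a1, low in UVB epidermis, was higher in tumors, with 14.7 and 16.3 CPM against 3.82 and 5.54 CPM in UVB epidermis, a log2 of 1.73 ± 0.50 (edgeR adjusted p = 0.0201). This call was lost when any 1 of the 4 libraries was left out (edgeR adjusted p of 0.0593 to 0.133). Col12a1 had 184 and 191 against 91.0 and 46.1 CPM, a log2 of 1.45 ± 0.38 (edgeR adjusted p = 0.0127), and was not called without UVB replicate 1 or tumor replicate 1 (0.158 and 0.0578). Chains known from keratinocytes gave no call: Col4a5 had 15.8 and 14.2 CPM in tumors and 15.6 and 12.1 CPM in UVB epidermis, Col4a6 5.62 and 11.2 against 12.1 and 10.4 CPM, and Col17a1 533 and 500 against 495 and 408 CPM. Col20a1 had 8.07 and 9.24 CPM in tumors and 12.5 and 16.1 CPM in UVB epidermis, also without a call. Leaving out 1 library at a time left 15 to 18 called chains. All 7 endothelial, all 7 skeletal muscle and 9 of 12 fibroblast markers were called higher in tumors, beside 16.8% of all genes. In epidermis alone, 2 endothelial, 7 skeletal muscle and 8 fibroblast markers were tested. The others passed the filter through tumor or whole skin, so for them a higher level was largely set in advance. The part of the markers in the collagen levels was not tested.

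Whole skin was compared with control epidermis, both of unexposed mice at week 25. Of 37 tested chains 27 were higher in whole skin and none lower, beside 55.6% of all genes called, 31.9% higher and 23.7% lower. All 8 tested network and beaded filament chains, 8 of 11 fibrillar, 5 of 6 fibril-associated, 4 of 7 basement membrane and 2 of 3 other chains were higher, and neither epidermal chain. The called Col11a1, Col13a1, Col14a1, Col15a1, Col22a1, Col24a1, Col6a5, Col6a6, Col8a1 and Col8a2 had too few counts to be tested in epidermis alone. They passed the filter through whole skin or tumor, so for them a higher level than in epidermis was largely set in advance. The count and the median describe the tested chains only. The median log2 was 4.89 (3.55 with the 6 chains at 0 in control epidermis at their bounds), against 0.18 for all genes. Col6a2 had 34.6 and 49.4 CPM in whole skin and 0 counts in control epidermis, at least 166-fold higher (edgeR adjusted p = 8.22e-06). Col1a2 had 137 and 220 CPM against 2.02 and 0.924 CPM, a log2 of 6.91 ± 0.76 (edgeR adjusted p = 9.85e-06). Col3a1 had 176 and 330 against 2.02 and 0.308 CPM, a log2 of 7.77 ± 0.94 (edgeR adjusted p = 1.16e-05). Col4a1 had 50.2 and 85.8 against 0.843 and 0.462 CPM, a log2 of 6.67 ± 0.77 (edgeR adjusted p = 9.69e-06).

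The chains of the epidermal anchoring complex gave no call here. Col17a1 had 543 and 379 CPM in whole skin and 410 and 370 CPM in control epidermis, a log2 of 0.24 ± 0.27 (edgeR adjusted p = 0.462), and Col7a1 275 and 193 against 132 and 170 CPM, a log2 of 0.64 ± 0.31 (edgeR adjusted p = 0.0956). Col18a1, Col16a1 and Col23a1, all well above 0 in epidermis, were higher in whole skin by smaller amounts, with log2 values of 1.48 ± 0.43, 1.25 ± 0.43 and 0.997 ± 0.39 (edgeR adjusted p = 0.0116, 0.0247 and 0.0463). Without whole skin replicate 0 the log2 was 0.71 for Col16a1 and 0.26 for Col23a1 (edgeR adjusted p = 0.211 and 0.594). Neither was called without control replicate 0 or 1 (edgeR adjusted p of 0.07001 to 0.236), Col23a1 was not called in a fit of only the 4 libraries (0.147), and Col18a1 was not called without control replicate 0 (a log2 of 1.07, edgeR adjusted p = 0.113). Leaving out 1 library at a time left 22 to 30 called chains. All 7 endothelial, all 7 skeletal muscle, all 6 adipocyte and 11 of 12 fibroblast markers were called higher in whole skin, beside 31.9% of all genes. In epidermis alone, 2 endothelial, 7 skeletal muscle, 3 adipocyte and 8 fibroblast markers were tested. The others passed the filter through whole skin or tumor, so for them a higher level was largely set in advance. The part of the markers in the collagen differences was not tested.

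**Figure D5:**
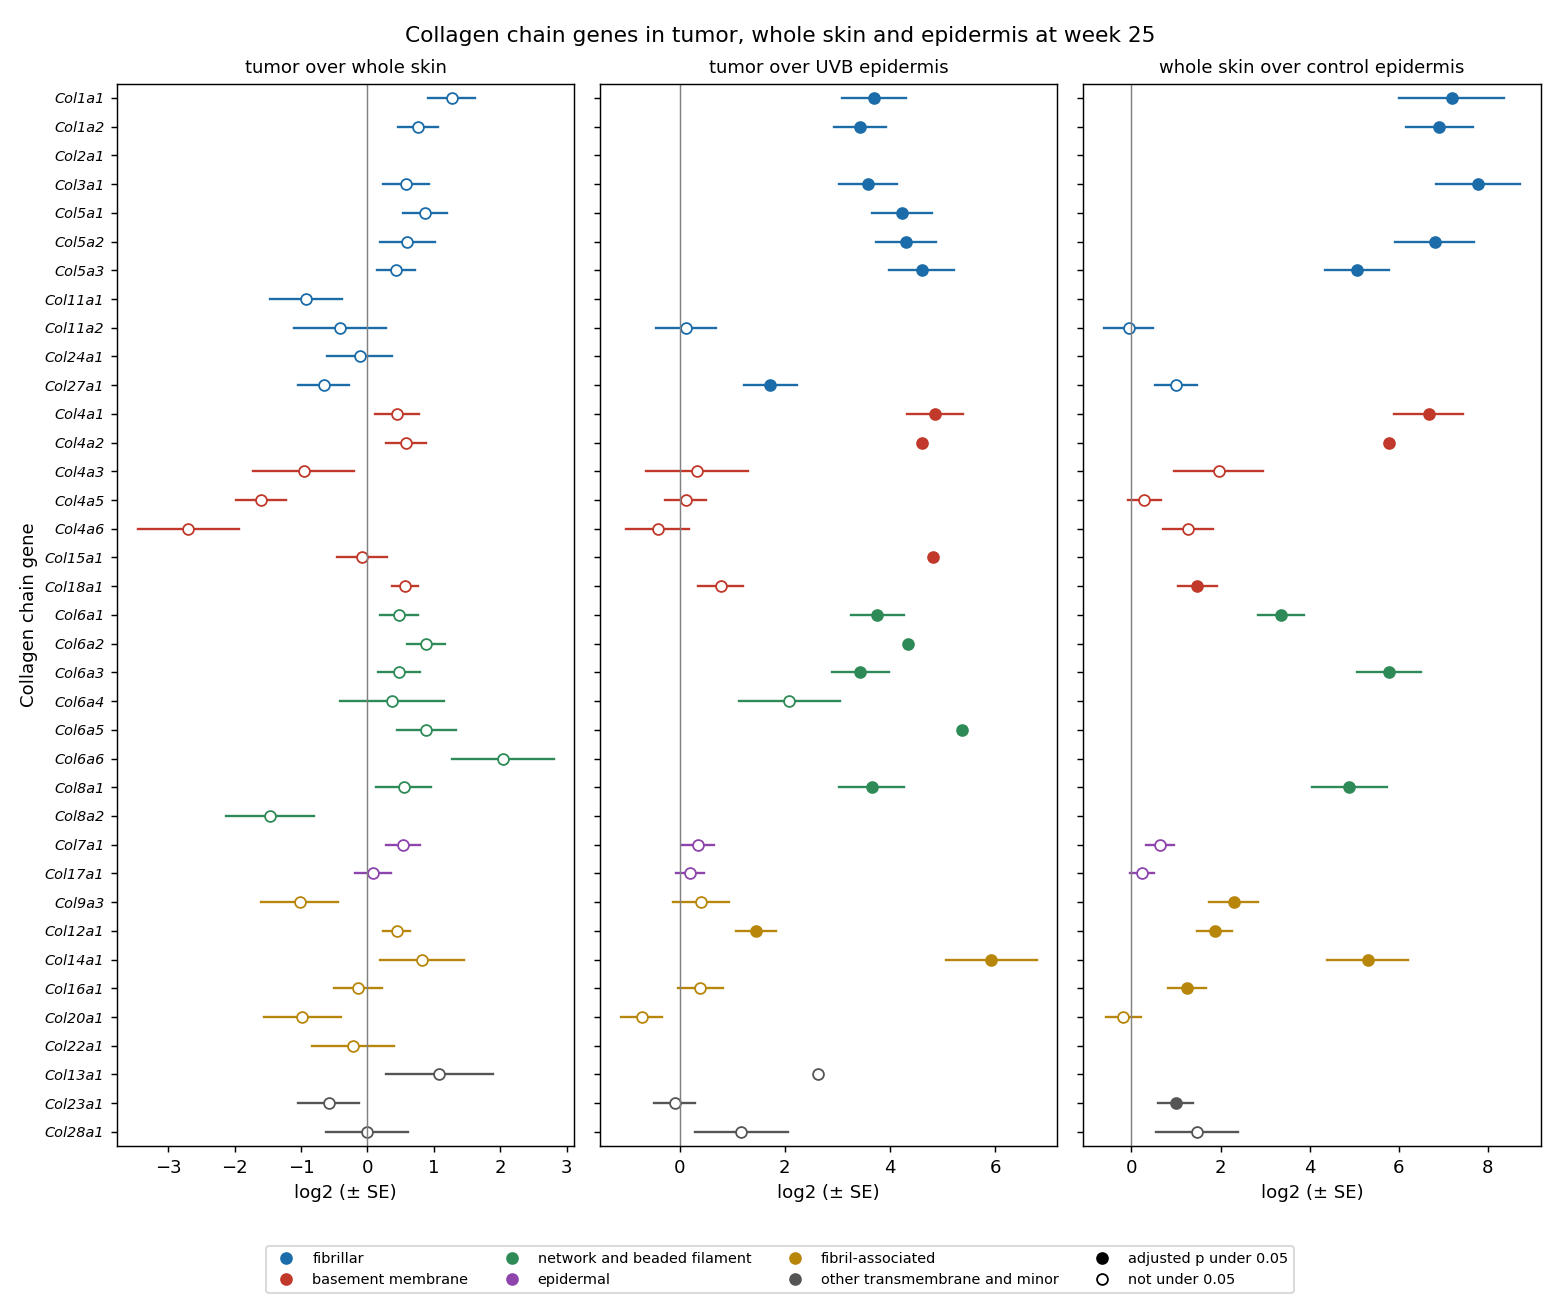
Log2 values (± SE of the edgeR fit) of the tested chains for tumor over whole skin, tumor over UVB epidermis and whole skin over control epidermis at week 25, coloured by class. Filled points have an adjusted p under 0.05, a point without a bar has no SE, and genes with 3 or fewer counts in a group are not drawn. Each panel has its own log2 axis. Col1a1, Col1a2 and Col3a1 are open points in the first panel and filled points to the right of 0 in the other 2.

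Genes whose products make, cut or bind collagen were read from 3 lists. Of 22 tested genes of biosynthesis and processing, 4 were higher and 2 lower in UVB epidermis over the weeks, where 29.5% of all genes were called, 14.4% higher and 15.1% lower. Plod2, a lysyl hydroxylase that prepares collagen for cross-linking, averaged 7.09 ± 2.93 CPM in UVB and 1.47 ± 0.363 CPM in control epidermis (SD, n = 6 each), a log2 of 2.17 ± 0.33 (edgeR adjusted p = 0.000722). P4ha3, a prolyl hydroxylase subunit, was higher by a log2 of 4.47 ± 0.86 (edgeR adjusted p = 0.000975). Adamts14, which removes the amino-terminal propeptide of procollagen, was lower, with 17.97 ± 11.7 CPM in UVB and 35.2 ± 10.9 CPM in control epidermis (edgeR adjusted p = 0.00737). Crtap, a subunit of the prolyl 3-hydroxylase complex, had a log2 of -0.31 ± 0.08 (edgeR adjusted p = 0.0161). The list's median log2 was 0.18, against -0.02 for all genes.

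Of 9 tested receptors and uptake genes 4 were higher and none lower in the same comparison, with a median log2 of 0.78 against -0.02 for all genes. Ddr2, a receptor kinase for fibrillar collagen, averaged 138 ± 46.8 CPM in UVB and 45.6 ± 19.6 CPM in control epidermis, a log2 of 1.59 ± 0.27 (edgeR adjusted p = 0.00143). Lair1, an inhibitory collagen receptor of immune cells, Itgb1, the integrin subunit shared by collagen receptors, and Mrc2, which takes up collagen for breakdown, were higher by log2 values of 2.85 ± 0.53, 1.19 ± 0.27 and 0.78 ± 0.26. Of 18 tested partners at the dermal-epidermal junction, Itga6 was among the higher, with a log2 of 0.82 ± 0.19, and Egfl6 and Plec were lower, with log2 values of -1.12 ± 0.28 and -0.45 ± 0.14. Itga6 encodes a subunit of the hemidesmosome integrin, part of the same structure as Col17a1. In tumors 19 of 31 biosynthesis genes were higher than in UVB epidermis and none lower, beside 16.8% and 12.7% of all genes, among them the cross-linking enzyme Lox, with a log2 of 6.45 ± 0.96, and the procollagen proteinase enhancer Pcolce, with 4.83 ± 0.62. Ctsk, a protease that degrades collagen, had a log2 of 5.72 ± 0.62 in that comparison. Of the biosynthesis list 22 genes were tested in epidermis alone, and the others passed the filter through tumor or whole skin. Between tumor and whole skin the main edgeR fit called no gene of the 3 lists. It called none of all 14661 genes tested, so this is not particular to the lists.

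Of the 43 chains 17 were not tested in epidermis for low counts. They were Col11a1 and Col24a1 among the fibrillar, Col15a1 and Col4a4 among the basement membrane, and Col10a1, Col6a5, Col6a6, Col8a1 and Col8a2 among the network chains. The others were the fibril-associated Col9a1, Col9a2, Col14a1, Col19a1 and Col22a1, and the minor Col13a1, Col25a1 and Col28a1. Over the 16 libraries they had 23 counts (Col19a1) to 896 counts (Col15a1). Col6a5 and Col6a6, alternative beaded filament chains, had 0 counts in all 6 control epidermis libraries and in the UVB libraries of weeks 2 and 15. In tumors Col6a5 had 10.4 and 18.9 CPM, against 6.71 and 8.21 CPM in whole skin, and Col6a6 2.16 and 4.69 against 0.413 and 1.25 CPM. Col13a1, a transmembrane chain, had 1.83 and 0.179 CPM in UVB epidermis at week 25 and 0 and 0.154 CPM in the controls, and 5.62 and 7.45 CPM in tumors against 0.929 and 5.17 CPM in whole skin. Col15a1, a vessel basement membrane chain related to Col18a1, had 24.2 and 36.6 CPM in tumors and 22.3 and 38.5 CPM in whole skin, and 1.53 CPM at most in epidermis. Col8a1, of the short-chain network, had 22.0 and 16.8 CPM in tumors and 9.39 and 16.1 CPM in whole skin. Col11a2, tested but never called, had 1.88 to 8.76 CPM in UVB and 1.69 to 6.92 CPM in control epidermis. Col9a3 shares 229 bases, 8.05% of its exons, with Tcfl5, and Col7a1 shares 36 bases with Mir711; the strand setting of the counting is not given in the sources used here, so reads there may belong to either gene.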

How the data were processed

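Sequencing of RNA from 16 skin libraries was used. The deposited table gives raw read counts for 24421 genes, which per its file headers were made by the authors from alignments with duplicates removed. Per the submitters' processing notes, HISAT2, Picard, featureCounts and DESeq2 were used on mm10. Whether counting used strand, how reads with several matches were treated and which annotation was used is not given in the sources.

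Counts were tested in R 4.3.3 with the edgeR 4.0.16 quasi-likelihood test after filterByExpr (minimum count 10, minimum total 15) and TMM scaling, with Benjamini-Hochberg adjustment over all genes tested and a threshold of 0.05. The 12 epidermis libraries, the 4 tumor and whole skin libraries, and all 16 libraries (for tissue against epidermis) each had their own fit. Depth was 2905165 to 7959503 counts. Levels are CPM on TMM sizes of all 16 libraries. Folds against 0 counts use a floor of 3 counts over the group, and with 1 to 3 counts in a group the ratio has an exact Clopper-Pearson interval of 95%, which covers counting error only. Fits of some of the comparisons were also run on counts simulated with the same spread for every gene. Such counts do not show how far the calls in these libraries can be relied on.

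Alternatives were DESeq2 1.42.0, other scalings, no filter, other sets of libraries, a replicate block and leaving out each library. Members and lists were chosen with earlier results of these data known. Named with per-library values are the 2 chains per class with the highest level per kilobase and up to 4 with the smallest p per comparison, and from partner lists up to 4 called genes. One partner gene that this rule names is not reported here.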

Additional observations from a re-analysis of the deposited data

Results flagged for a closer look

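For 10 collagen chains the UVB effect at week 25 differed from that at week 2 by a test of the difference itself (edgeR interaction term, Benjamini-Hochberg adjusted over 13478 genes). All 10 were toward higher, where 3.33% of all genes were called in that direction and 7.92% in either. These calls depended on single libraries, as given in the Results, and Col5a1 and Col6a2 passed the filter only with the week 25 UVB libraries. The adjusted p was 0.0125 for Col1a2, 0.0138 for Col3a1 and 0.0186 for Col1a1. It was 0.0237 for Col5a2, 0.0300 for Col5a1, 0.0148 for Col4a1 and 0.0322 for Col4a2. It was 0.0138 for Col6a2, 0.0271 for Col6a1 and 0.0362 for Col20a1. Apart from Col20a1, the mean of these chains was below control in UVB epidermis at week 2 and above it at week 25. Col20a1 was lower in UVB epidermis at both weeks, by less at week 25.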

How the results depend on the processing

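Counts of called collagen chains stayed within 1.5 times under the alternatives, with these exceptions and that of the replicate block given at the end. Fits of only the 4 libraries compared gave 5 at week 2, 13 at week 25 and 0 for control epidermis at week 25 over week 2. Scaling by library totals gave 2 at week 15. Without the filter 11 were called for control epidermis at week 25 over week 2, and 2 for the UVB effect at week 25 minus week 15, where DESeq2 also called 2. DESeq2 called 1 for tumor over whole skin. The cause was not tested. Leaving out 1 library at a time gave 5 to 8 for UVB over the weeks, 0 to 7 at week 2, 0 to 3 at week 15, 0 to 8 at week 25, 0 to 9 for week 25 minus week 2 and 0 for the other differences between weeks. It gave 0 to 6 for control epidermis over time, 0 to 27 for tumor over whole skin, 15 to 18 for tumor over UVB epidermis and 22 to 30 for whole skin over control epidermis. The log2 of Col7a1 over the weeks ran from -0.0065 (without week 25 control replicate 0) to 0.33. That of Col17a1 ran from -0.15 (without whole skin replicate 1) to 0.39 for tumor over whole skin, and from -0.045 (without whole skin replicate 0) to 0.47 for whole skin over control epidermis. No called chain changed direction under another scaling. Library totals moved the median log2 of all genes to 0.56 for whole skin over control epidermis, against 0.18 under TMM. Deviations of same-numbered libraries from their group means correlated over genes by -0.196 to 0.302 between groups. This gave no clear sign that replicate numbers pair the samples, but it cannot exclude a pairing. With the replicate block 9 chains were called over the weeks, 8 at week 2, 4 at week 15, 9 at week 25, 10 for week 25 minus week 2, 4 for control epidermis, 3 for tumor over whole skin (Col1a1, Col4a5 and Col4a6, against 0 without the block), 22 for tumor over UVB epidermis and 27 for whole skin over control epidermis. With 2 libraries per group, chains under about 10 counts per group carry wide intervals.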
